A study of Mus musculus with 2 samples.

Results

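The nuclear hormone receptor genes described here are 35 of the 21938 protein-coding genes on the assembled mouse chromosomes. They were taken as a list of gene symbols, by a rule that uses no measured value but with earlier results of these data known, and divided into 4 steroid receptors, 13 receptors of metabolic ligands and 18 orphan receptors, which had no known natural ligand when they were named. Chromatin accessibility was measured by DNase-seq, in which DNase I cuts nucleosome-depleted DNA, in kidney tissue of newborn mice (postnatal day 0) of strain B6NCrl, untreated as far as the labels say and with no other tissue, age or genotype for comparison. The 1 group holds 2 biological replicates with separate tissue records but the same donor record, and sex was not collected. Nothing in the labels says that separate animals were used, and the differences between replicates given below may therefore be technical. Replicate 2 is labelled with more than 1 Illumina instrument model and replicate 1 with none.

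Nuclear receptors are transcription factors with a zinc-finger domain that binds DNA and a pocket that, in many members, binds a small lipophilic ligand such as a steroid, a thyroid hormone, a fatty acid or a bile acid. Steroid receptors bind as dimers to palindromic elements. Most metabolic receptors pair with a retinoid X receptor (RXR) on direct repeats of a short element, and many orphan receptors bind 1 copy of that element as monomers. Several of the genes have alternative promoters that give proteins or transcripts of different tissues. In kidney, nuclear receptors are known for roles in glucocorticoid and mineralocorticoid response, fatty acid oxidation in the proximal tubule, and the patterning of nephron and stroma.

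The deposited lists held 266133 peaks in replicate 1 and 257133 in replicate 2, with median signals of 17.1 and 16.9. Sequencing depth is unknown, since the lists hold no read counts. Signal is the authors' own value for each peak, in units that the sources used here do not define, and was used to describe and rank peaks within each list. Of 14 genes that mark kidney cell types, 13 had a promoter peak in both replicates, and Slc12a1 had a peak in replicate 2 alone. Of the markers of other cell types, 3 of 7 for adrenal cortex, 1 of 6 for liver, 3 of 6 for leukocytes and 6 of 6 for neurons had such peaks, where the share over all protein-coding genes was 71.8%. Their part in the values below was not tested. In bulk tissue, fewer cells with an open site and less accessibility in each cell cannot be told apart.

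A promoter peak was a peak that overlapped the 1 kb to each side of any transcription start site (TSS) of the gene. Such a peak was present in both replicates for 32 of the 35 receptor genes (91.4%), against 71.8% of all protein-coding genes. By class it was found for 4 of 4 steroid receptors, 12 of 13 metabolic receptors and 16 of 18 orphan receptors. Neither replicate had a promoter peak at Nr1i3 or Nr0b2, which makes 2 of 35, against 26.0% of all protein-coding genes. Nr2e3 had a promoter peak in replicate 2 alone. With 1 group and 2 replicates there is no test between groups, and genes are not replicates, so every comparison between classes is a description.

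Peaks at receptor promoters had signals somewhat below those of other genes. Over the 32 genes the median signal of the strongest promoter peak was 82.4 in replicate 1 and 87.0 in replicate 2, against 95.4 and 104.6 over all protein-coding genes with a peak. Ranked among the strongest promoter peaks of all such genes, the receptors lay at a median percentile of 43.9 in replicate 1 and 43.3 in replicate 2. The median signal was 53.9 and 52.04 for steroid receptors, 90.9 and 91.2 for metabolic receptors, and 82.3 and 88.8 for orphan receptors. Within each class, however, the mean of both replicates spread widely: from 24.3 to 140 among steroid receptors, from 24.3 to 238 among metabolic receptors and from 15.4 to 281 among orphan receptors. The ranges overlap, and 4 steroid receptors are too few for their median to set the class apart. All 32 genes had signals within 2-fold of each other in the replicates, as did 15726 of the 15743 protein-coding genes with a peak in both.

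Among the steroid receptors, Nr3c1, which encodes the glucocorticoid receptor, had the strongest promoter peak, with signals of 126 and 155 (140 ± 20.96, SD, n = 2). Esr2, which encodes estrogen receptor beta, had 64.2 and 60.2, from a peak centred at -756 and -736 bp from its TSS. In a window of 500 bp its mean signal was 35.5, from another peak. Esr1, which encodes estrogen receptor alpha, had 43.5 and 43.9. Pgr, the progesterone receptor gene and a classical estrogen target, had 22.4 and 26.2, from peaks at different places in the replicates. Nr3c1 thus stood above the other steroid receptors in both replicates, and Pgr below them. The order of these genes was the same in both replicates.

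Alternative starts of the steroid receptors were accessible in part. Nr3c1 has 3 separate promoters (starts whose windows of 1 kb to each side do not overlap). Its most 5′ start had no peak in either replicate, the main start cluster 29.1 kb downstream carried the signals of 126 and 155, and a last cluster at 32.2 kb had 39.1 and 31.8. Esr1 had peaks at 3 of its 5 promoters. They were at the first start (43.5 and 43.9), at 98.6 kb (21.2 and 16.0) and at 101.1 kb (13.5 and 14.9, from different places in the replicates). In RefSeq the first of these starts gives estrogen receptor isoform 1, and the second gives both isoform 1 and isoform 2. Pgr has a single promoter, and the second promoter of Esr2, at 9.54 kb, had no peak.

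The thyroid hormone receptors had nearly equal promoter signals in the window of 1 kb around any TSS, but not at other settings. Thra, which encodes the receptor form that prevails in heart, bone and brain, had 89.9 and 92.9, and Thrb, which prevails in liver, had 91.9 and 89.5. The Thra peak that ranked highest lay 3.60 kb downstream of the most 5′ start in replicate 1 and at the first promoter in replicate 2, where the replicates had 74.4 and 92.9. All 3 promoters of Thra were accessible, the last with 16.5 and 13.9 from peaks at different places in the replicates. The Thrb peak was centred at -1045 bp from its start, so that it fell in the window by its edge, and it counts below as a distal site too. Thrb isoforms differed by start. That of isoform 1 was accessible, while that of isoform 2, a form known from pituitary and retina, had no peak, the nearest lying 13899 bp away in replicate 1 and 13919 bp in replicate 2. In a window of 500 bp, Thrb kept a peak in both replicates, with a mean signal of 51.0 against 91.4 for Thra. With the most 5′ TSS only, the means were 90.7 for Thrb and 63.6 for Thra.

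Of the peroxisome proliferator-activated receptors, which sense fatty acids, Ppard was by far the strongest. It had signals of 209 and 266 (238 ± 40.0), the second highest mean of the 35 genes. Ppara, the main driver of fatty acid oxidation genes in liver and kidney, had 74.9 and 105.1 (90.0 ± 21.4). Pparg, the master regulator of fat cells, had 31.6 and 26.9. The order was Ppard, Ppara and Pparg in both replicates.

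Pparg differs between its starts in a way that its strongest peak hides. The start of isoform 1, which is used in many tissues, had 23.4 and 26.3. The strongest peak was centred at -743 and -723 bp from a start 22.7 kb further downstream. In a window of 500 bp the strongest mean signal of Pparg was 24.9, that of the isoform 1 start. The start of isoform 2, the form of fat cells, at 61.1 kb, had no peak in either replicate, and the nearest peaks were 10256 and 10396 bp away. Ppara had 2 of 2 promoters accessible, the second at 37.2 kb with 15.8 and 19.2 from peaks at different places in the replicates. Ppard had 2 of 3, the second at 39.2 kb with 9.88 and 13.7.

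Among receptors of sterols and bile acids, the liver X receptors had strong promoter peaks and the bile acid receptor a weak one. Nr1h2, which encodes LXR-beta and is expressed in most tissues, had 146 and 166. Nr1h3, which encodes LXR-alpha, had 155 and 165, but that peak lies at a non-coding start and is shared with the promoter of Acp2, an acid phosphatase gene. At the start of its coding transcripts Nr1h3 had 60.1 and 84.5. Nr1h4, which encodes the bile acid receptor FXR, had 27.7 and 20.9 at the start of isoform 2 and 13.4 and 11.9 at the start of isoforms 1 and 3. The gap between the liver X receptors and Nr1h4 was larger than the spread between replicates also when only the coding start of Nr1h3 was taken.

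The xenobiotic receptors, which switch on drug-metabolizing enzymes in liver and gut, differed: one had a promoter peak of moderate signal and the other none. Nr1i2, which encodes the pregnane X receptor, had 42.1 and 47.5 from a peak centred at -931 and -971 bp from its single start, and in a window of 500 bp its mean signal was 19.1. Nr1i3, which encodes the constitutive androstane receptor, had no promoter peak in either replicate, the nearest peak lying 4300 bp away with signals of 70.1 and 60.8. Cyp3a11, the classical target gene of the pregnane X receptor, had no promoter peak either, and Cyp2b10, that of the constitutive androstane receptor and named here after its values were seen, had 11.8 and 10.02.

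The 3 RXR genes, which encode the shared partners of the metabolic receptors, all had promoter peaks. Rxrb had 163 and 177, from a peak shared with the zinc transporter gene Slc39a7 at a head-to-head promoter. Without peaks shared with another coding gene its mean signal was 32.5. Rxra, the partner needed for eye and heart development, had 74.95 and 78.6, and all 3 of its promoters were accessible. In replicate 2 its highest peak lay at the promoter 63.8 kb downstream, which had 61.2 and 78.6, and not at the start of isoform 1 with 74.95 and 72.8. Rxrg, a form of muscle and brain, had 98.8 and 57.7 (78.2 ± 29.0). This was the widest gap between replicates of the 32 genes: a log2 ratio of replicate 2 to replicate 1 of -0.90 after centring on the median of all genes, with the other genes between -0.53 and 0.39. The start of Rxrg isoform 2, at 19.9 kb, had 10.9 and 14.1, from peaks at different places in the replicates.

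Of the estrogen-related receptors, orphan receptors that drive mitochondrial genes with the coactivators Ppargc1a and Ppargc1b, Esrra stood far above its relatives. Esrra had 259 and 303 (281 ± 31.1), the highest mean of the 35 genes. Esrrb, known from placenta, stem cells and inner ear, had 42.7 and 34.0. Esrrg, known from heart, muscle and kidney epithelium, had 36.5 and 44.0. Esrrb and Esrrg were not ordered alike in the replicates, so neither stood above the other.

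Esrrb and Esrrg each have a distant start. The most 5′ start of Esrrb, that of isoform 2, had a peak of 11.2 in replicate 2 alone, and the strongest peak lay at the start of isoform 1, 60.6 kb downstream. Both promoters of Esrrg were accessible although 389.1 kb apart, with 19.5 and 26.7 at the first and 36.5 and 44.0 at the second. At the first, the strongest peaks of the replicates lay at different places.

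Rora and Rorb, which encode receptors of the cerebellum, retina and circadian clock, had promoter peaks of like size. Rora had 106 and 104, and Rorb had 103 and 93.1. All 3 promoters of the long Rora gene were accessible: the start of isoform 1 had 104.2 and 103.9, and that of isoform 2, 635.9 kb further on, had 106 and 95.8. For Rorb the start of isoform 1 was accessible and that of isoform 2, a form of retina and pineal gland, had no peak. The nearest peaks were 3170 and 3090 bp away.

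The NR2 receptors differed widely in promoter signal. Nr2c2, a testicular receptor gene despite its wide expression, had 157 and 170, and its relative Nr2c1 had 92.8 and 96.0. Of the 7 separate promoters of these genes, only the first of each was accessible. Among the COUP transcription factors, regulators of mesenchyme, vessels and neural patterning, Nr2f6 had 105 and 114, Nr2f2 had 71.9 and 56.9 and Nr2f1 had 62.8 and 59.5. Nr2f2 and Nr2f1 exchanged their order between the replicates. The Nr2f1 peak was centred at -878 and -858 bp from its start, within 1 kb of a start of the non-coding gene A830082K12Rik. In a window of 500 bp the mean signal of Nr2f1 was 44.4. Of the 7 COUP promoters 6 were accessible, including all 3 of Nr2f2. The Nr2f2 promoter with the isoform 1 start joins 4 starts. It had 41.7 and 40.2, from peaks at different places in the replicates.

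Nr2e1 and Nr2e3, which encode the tailless receptor of neural stem cells and the photoreceptor-specific receptor, stood lowest. Nr2e1 had 12.9 and 17.9, from peaks at different places that are shared with Ostm1. Nr2e3 had 10.5 in replicate 2 alone at its coding start. A stronger peak, of 130 and 153, lay 1085 bp from its most 5′ start, just outside the window of 1 kb. The width of the window thus decides the call for Nr2e3.

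The NR4A genes, immediate early genes that are induced within minutes by many signals, all had promoter peaks. Nr4a1 had 114 and 116, Nr4a2 had 69.9 and 84.5, and Nr4a3 had 55.6 and 79.2. With the window of 1 kb the order was the same in both replicates. A stronger peak, of 175 and 201, was centred 1697 bp upstream of the Nr4a3 start, outside that window, and counts below as a distal site. Of their 8 promoters 7 were accessible, and only the last start of Nr4a1 lacked a peak. The strongest peak of Nr4a1 lay at its second promoter, 12.6 kb downstream of a first promoter with 53.5 and 58.7.

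Of the remaining orphan receptors, Nr6a1, a germ cell factor that also acts in the early embryo, had 138 and 136. Nr5a2, a regulator of liver, pancreas and gonad, had 54.6 and 48.1. That peak lay at its promoter 11.1 kb downstream. The most 5′ start of Nr5a2, that of isoform 1, had no peak within 6810 bp in replicate 1 and 6413 bp in replicate 2, and the start of isoform 2 had 19.2 and 20.9. Nr0b2, a repressor induced by bile acids in liver, had no promoter peak. The nearest peaks lay 7226 and 7206 bp away, with signals of 180 and 197.

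Counted over the list, 58 of 90 separate promoters were accessible in both replicates (64.4%), against 47.3% of the promoters of all protein-coding genes. For this call the peaks of the replicates did not have to overlap each other. The accessible promoters were 7 of 11 for steroid, 22 of 30 for metabolic and 29 of 49 for orphan receptors. Of the 29 receptor genes with at least 2 promoters, 19 had 2 or more accessible, against 33.7% of such genes overall. By class the 19 were 2 of 3 steroid, 8 of 10 metabolic and 9 of 16 orphan receptors. With GENCODE basic transcripts alone the 19 fell to 12. No share over all genes is given for that setting, so the 12 cannot be set against the 33.7%.

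**Figure D1:**
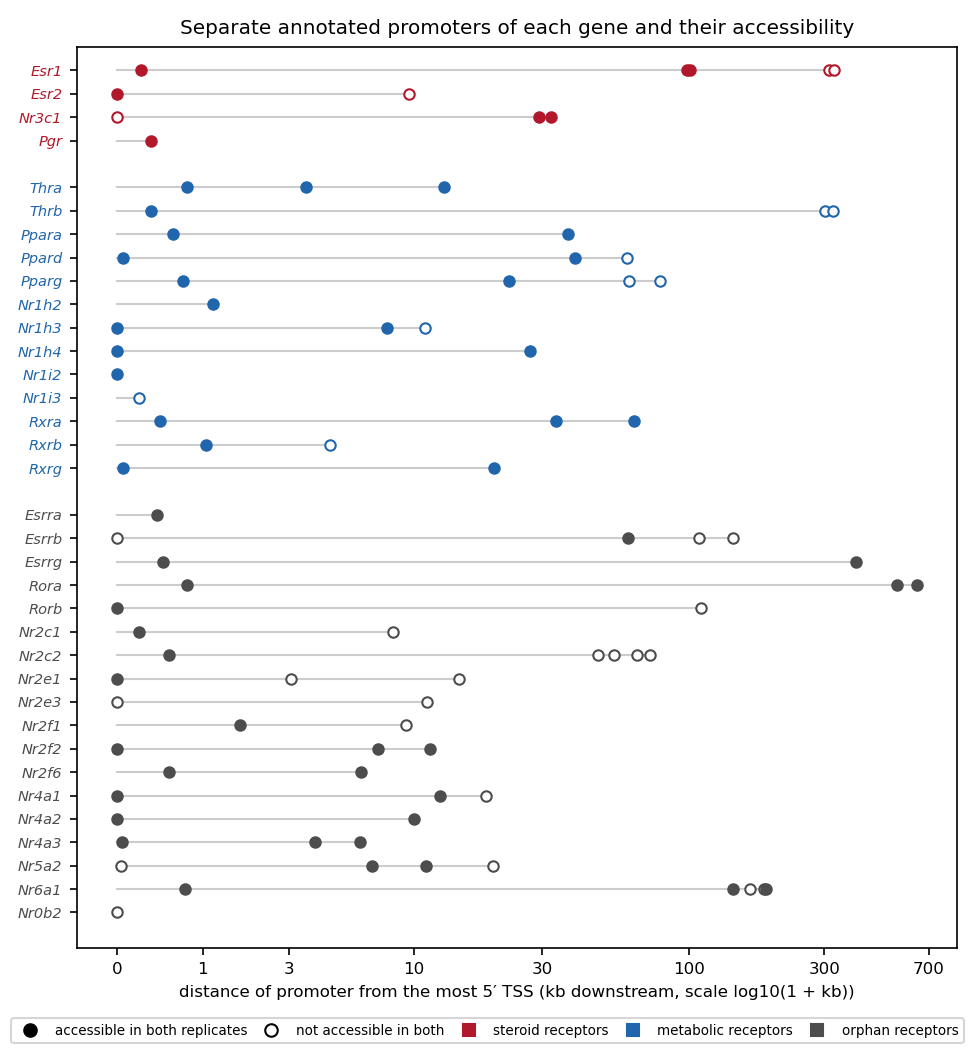
Separate annotated promoters of each receptor gene (y axis) by distance downstream of the most 5′ TSS (x axis, kb, on a scale of log10(1 + kb)). Filled circles are promoters with a peak in both replicates and open circles those without. Of 90 promoters 58 are filled; all promoters of Esrrg and Rora are filled, while the downstream starts of Thrb, Rorb and Nr2c2 are not accessible.

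Promoters rich in CpG dinucleotides were nearly all accessible, in receptor genes as in the genome. These dinucleotides are clustered in the islands that cover many promoters of widely expressed genes. Where CpGs reached at least 0.6 of the number expected from base composition, 31 of 32 receptor promoters were accessible (96.9%), against 97.4% of all promoters. Below 0.6 it was 27 of 58 (46.6%), against 29.3%. The exception above 0.6 was an inner start of Esrrb. The start of Nr4a2, for example, had a ratio of 0.86, and the isoform 2 starts without a peak had 0.20 (Pparg), 0.29 (Thrb) and 0.44 (Rorb).

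The accessible peaks themselves also differed in CpG content. Below are the strongest promoter peaks of Esrra (chr19:6921861-6922010), Nr4a1 (chr15:101266661-101266810), Thrb (chr14:17659141-17659290) and Nr1i2 (chr16:38295681-38295830), from mouse assembly mm10 (RefSeq GRCm38.p6), plus strand, with CpG dinucleotides in capitals. None overlaps an annotated exon. They are shown because they span the range from the strongest signal of the list to the peaks that lie far upstream of a start.
Esrra: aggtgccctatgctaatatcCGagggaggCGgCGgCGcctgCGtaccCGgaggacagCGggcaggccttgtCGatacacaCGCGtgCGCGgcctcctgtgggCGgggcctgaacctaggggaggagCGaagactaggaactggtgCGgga
Nr4a1: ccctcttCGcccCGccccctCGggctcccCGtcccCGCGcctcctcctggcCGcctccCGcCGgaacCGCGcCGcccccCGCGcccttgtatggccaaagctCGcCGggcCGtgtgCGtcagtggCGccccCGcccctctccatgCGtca
Thrb: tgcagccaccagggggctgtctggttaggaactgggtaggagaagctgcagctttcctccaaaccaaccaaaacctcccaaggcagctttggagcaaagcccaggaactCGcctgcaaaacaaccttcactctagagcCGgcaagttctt
Nr1i2: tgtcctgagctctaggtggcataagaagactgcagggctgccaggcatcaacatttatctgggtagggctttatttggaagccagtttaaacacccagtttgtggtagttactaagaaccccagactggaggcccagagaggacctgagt
The Esrra peak holds 15 CpGs and that of Nr4a1 holds 21, while the peaks of Thrb and Nr1i2 hold 2 and 0. The median was 11 over the 32 receptor genes and 11 over all genes with a peak. Peaks with no more than 2 CpGs made up 7 of the 32, against 1320 of 15743.

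Distal sites were peaks of both replicates that overlapped each other and lay within 1 kb of no annotated TSS. Receptor genes had a median of 9 such sites no more than 50 kb from the most 5′ TSS, against 6 for all protein-coding genes, and 28 of 35 had more than 6, against 46.6% of all genes. Among genes with a promoter peak in both replicates the medians were closer, 9.5 for receptors and 8 for all genes. The median was 11 for steroid receptors (7 to 13), 11 for metabolic receptors (1 to 32) and 8.5 for orphan receptors (0 to 23). The classes overlap almost entirely. In all there were 359 sites, of which 206 were intronic, 129 intergenic and 24 exonic. The nearest coding TSS was that of the receptor itself for 234 sites, and 131 lay inside the receptor gene. Their median signals, 21.6 and 21.3, were close to those of all 151073 distal sites, 19.8 and 18.6. Distance alone does not tie a site to a gene.

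**Figure D2:**
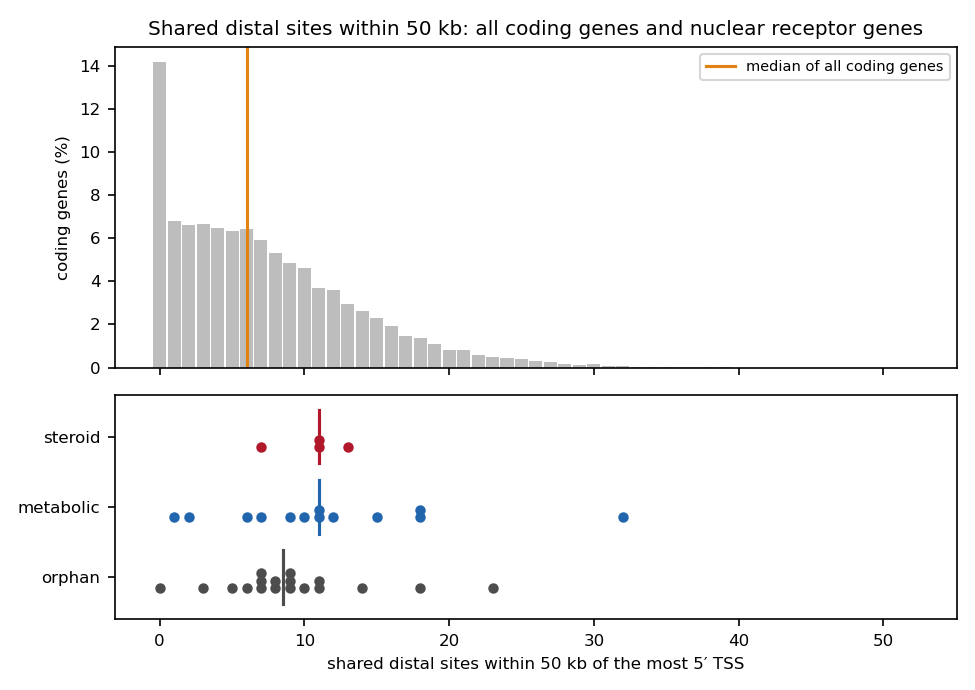
Upper panel: share of all protein-coding genes (y axis, %) by number of shared distal sites up to 50 kb away (x axis), with the median of 6 in orange. Lower panel: each receptor gene as a point by class, with the class median as a bar; Thra, with 32 sites, and Nr4a1, with 23, lie far to the right and Rorb, with 0, at the left end.

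Within 50 kb Thra had the most distal sites, 32, followed by Nr4a1 with 23 and by Ppard, Nr1i3 and Nr2f2 with 18 each. This order depends on the distance: Nr4a1 led the list within 25 kb, with 13 against 8 for Thra, and within 100 kb, with 49 against 40. By coding TSSs alone, not all of these sites were nearest to the receptor. Of the 32 sites around Thra only 5 were nearest to the TSS of Thra, and of the 18 around Nr1i3 only 1 was nearest to that of Nr1i3. Thra lies next to the clock gene Nr1d1. By contrast, for all 18 sites around Nr2f2 and all 14 around Nr2f1 the nearest coding TSS was that of the receptor. Starts of non-coding genes were left out of this count. Only 3 of the Nr2f2 sites and 1 of the Nr2f1 sites lay inside the receptor gene, although 12 around each were intronic. At the other end Rorb had 0 sites, Nr1h3 had 1 and Thrb had 2. Nr0b2 and Nr1i3, without a promoter peak, had 7 and 18 sites. Nr1i2 had 11, Esr1 13, Nr3c1 11 and Rxra 15.

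**Figure D3:**
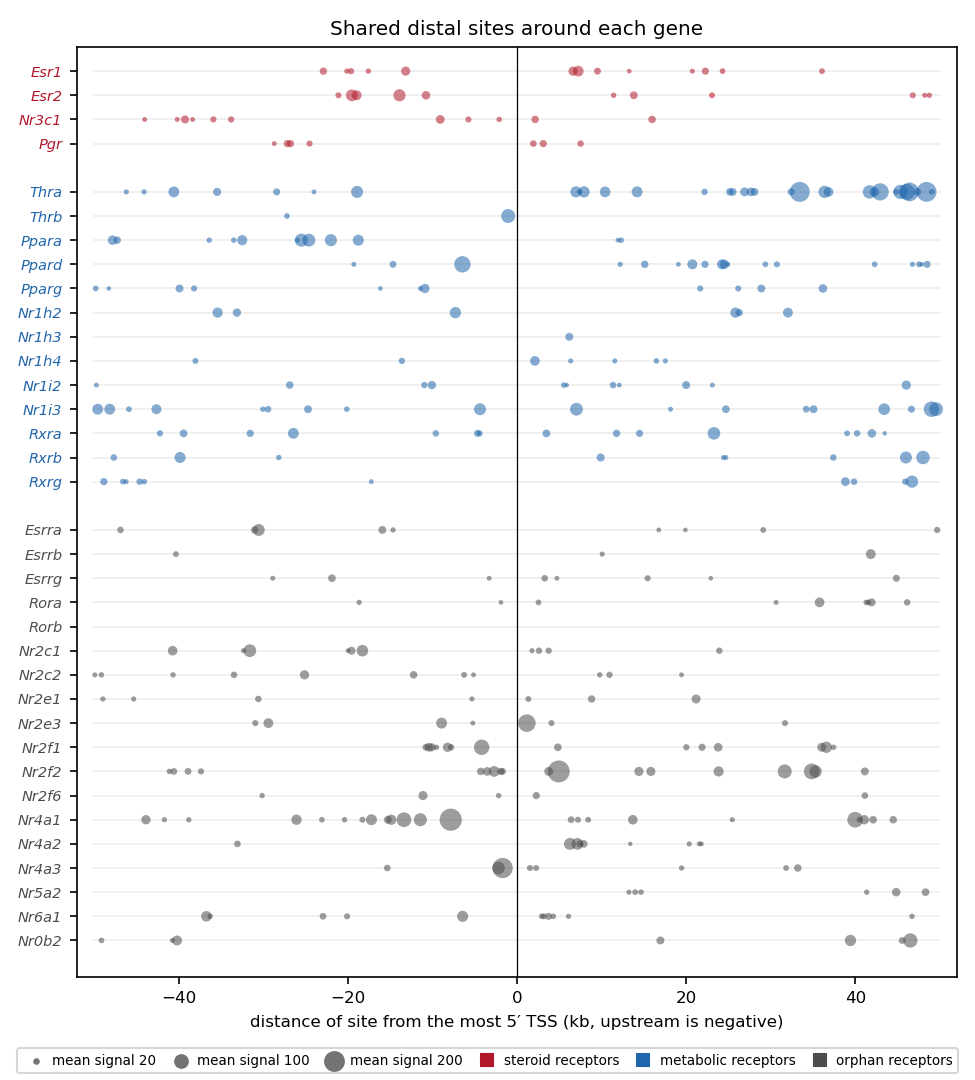
Shared distal sites of each receptor gene (y axis) by distance from the most 5′ TSS (x axis, kb, upstream negative). The area of each circle is proportional to the mean signal of the site in both replicates. Large circles stand at -7833 bp for Nr4a1, 4929 bp for Nr2f2, -1697 bp for Nr4a3, and 33417 and 48407 bp for Thra.

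The 5 strongest distal sites lay around 4 genes. The strongest was centred at -7833 bp from the most 5′ start of Nr4a1, with 209 and 242 (226 ± 23.1), and its signal exceeded that of the Nr4a1 promoter peak in both replicates. The second lay in an intron of Nr2f2, 4929 bp from its most 5′ start, with 213 and 231, likewise above the promoter peak of its gene. It was only 1212 bp from the nearest start of Nr2f2, just outside the window of 1 kb. The next was centred at -1697 bp from the start of Nr4a3, with 175 and 201, against a promoter peak of 55.6 and 79.2. The other 2, at 33417 bp (172 and 195) and 48407 bp (165 and 198) from the start of Thra, were nearest to the coding TSSs of Nr1d1 and Msl1.

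The first 3 of these sites are shown because they are stronger than the promoter peaks of their genes and rich in CpGs, which is rare among distal sites. They lie at chr15:101246361-101246510, chr7:70361721-70361890 and chr4:48043361-48043550 (mm10, plus strand, CpGs in capitals).
Nr4a1 upstream site: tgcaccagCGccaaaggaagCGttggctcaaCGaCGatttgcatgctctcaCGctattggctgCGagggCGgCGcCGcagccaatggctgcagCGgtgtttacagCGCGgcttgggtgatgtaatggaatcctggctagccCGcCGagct
Nr2f2 intronic site: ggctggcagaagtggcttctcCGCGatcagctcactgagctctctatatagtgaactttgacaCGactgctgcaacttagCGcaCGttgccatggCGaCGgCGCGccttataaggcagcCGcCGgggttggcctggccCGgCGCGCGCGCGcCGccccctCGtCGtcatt
Nr4a3 upstream site: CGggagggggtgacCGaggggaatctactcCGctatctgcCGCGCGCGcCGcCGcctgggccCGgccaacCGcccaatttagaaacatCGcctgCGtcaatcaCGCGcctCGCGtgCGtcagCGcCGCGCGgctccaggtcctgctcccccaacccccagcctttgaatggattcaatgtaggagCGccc
They hold 14, 20 and 23 CpGs, against a median of 3 in the distal sites of receptors and 2 in all distal sites. At least 10 CpGs, a limit chosen after these values were seen, were found in 36 of the 359 receptor sites (10.03%), against 2.58% of all distal sites. The 36 sites belonged to 17 genes, with 6 at Nr2f2, 4 each at Nr2f1 and Nr4a3, 3 each at Nr4a2 and Nr1h2, 2 each at Nr4a1, Nr2e1, Nr5a2 and Thra, and 1 at each of the rest. By class they were 27 at orphan, 8 at metabolic and 1 at steroid receptors, classes of 18, 13 and 4 genes. The classes also differ in their number of distal sites, and shares by class were not computed. The 10.03% thus rests mainly on sites at orphan receptors and does not describe each class. Whether any of these sites is an unannotated start was not tested.

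Over the whole gene body, receptor genes had a median of 8.48 distal sites per 100 kb, against 1.76 for all protein-coding genes. The latter include genes without a promoter peak in both replicates, which had a median of 1 distal site within 50 kb. Density among genes with a promoter peak alone is not given. In absolute number Rora led with 116 sites in 734.5 kb (15.8 per 100 kb), followed by Esrrg with 47 in 606.1 kb. Per length the densest were Thra (38.8 per 100 kb), Ppard (30.5) and Nr4a2 (29.1). Thrb, a gene of 377.8 kb, had 11 sites (2.91 per 100 kb), and Ppara had 2 (2.95). Nr1h2, Nr1i3, Rxrb, Esrra and Nr0b2, all shorter than 11 kb, had 0.

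Receptor genes can be bound by receptors, so their sites were searched for the elements that these proteins recognize. The common element AGGTCA was found, on either strand, in 44 of the 359 distal sites (12.3%), against 14.2% of all distal sites, and in 16 of 153 promoter sites (10.5%), against 9.07%. None of the strongest promoter peaks printed above holds it. Longer elements were rarer: direct repeats with a spacer of 1 base (DR1), the type bound by PPAR with RXR, were found in 1 receptor distal site (0.279%, against 0.228% of all distal sites) and 1 promoter site (0.654%, against 0.150%). The estrogen-related receptor element TCAAGGTCA stood in 2 distal sites (0.557%, against 0.439%), and the NR4A element AAAGGTCA in 3 (0.836%, against 1.57%). It includes AGGTCA, as does TCAAGGTCA, so these counts overlap. Palindromes of the glucocorticoid and the estrogen type were found in 0 of 359 distal sites, and in 13 and 5 of all 151073. The share with AGGTCA was close to the background in distal and promoter sites, and the longer elements, in 0 to 3 sites each, were too few to compare. A match is a description and not a binding site.

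Some of the rare matches in the receptors' own introns are printed because such longer elements were found in so few sites. They are a DR1 in an intron of Esrra (chr19:6921261-6921430, signals 26.6 and 28.3), a repeat with a spacer of 2 bases (chr17:28279341-28279530, signals 12.7 and 11.97) and one with a spacer of 3 bases (chr17:28281081-28281250, signals 22.5 and 24.5) in introns of Ppard, and the estrogen-related receptor element in an intron of Esrrg (chr1:187653541-187653710, signals 18.98 and 26.8). Not printed is the NR4A element in promoter sites in introns of Nr2c1 (chr10:94148861-94149110, signals 19.1 and 22.0) and Rxrg (chr1:167618081-167618290, signals 8.77 and 14.1). Coordinates are of mm10, the plus strand is printed, and the element stands in capitals.
Esrra DR1 site: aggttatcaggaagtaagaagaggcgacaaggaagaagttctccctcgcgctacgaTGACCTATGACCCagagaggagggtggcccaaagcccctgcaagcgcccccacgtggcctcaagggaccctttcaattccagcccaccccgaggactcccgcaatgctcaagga
Ppard DR2 site: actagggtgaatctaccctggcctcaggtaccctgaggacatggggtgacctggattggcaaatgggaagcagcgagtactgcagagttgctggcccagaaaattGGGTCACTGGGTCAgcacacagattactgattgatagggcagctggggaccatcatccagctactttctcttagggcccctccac
Ppard DR3 site: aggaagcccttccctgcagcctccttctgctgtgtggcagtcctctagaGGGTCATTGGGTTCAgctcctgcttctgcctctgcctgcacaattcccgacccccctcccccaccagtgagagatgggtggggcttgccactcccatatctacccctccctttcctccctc
Esrrg site: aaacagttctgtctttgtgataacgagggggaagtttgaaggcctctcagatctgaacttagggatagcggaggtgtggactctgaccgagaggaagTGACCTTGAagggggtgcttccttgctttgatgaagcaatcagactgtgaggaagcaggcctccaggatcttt
All 4 sites had lower signals than the strongest promoter peak of their gene. The Esrrg site was about level with the first promoter of Esrrg, at 19.5 and 26.7, and the DR3 site of Ppard stood above the second promoter of Ppard. The repeats were searched as direct repeats of RGKTCA with spacers of 1 to 5 bases on both strands.

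The partners of these receptors were looked at in the same way, in lists of 60 further genes, to be read against the 71.8% of all protein-coding genes with a promoter peak in both replicates. Among other nuclear receptors 13 of 14 genes had promoter peaks in both libraries, led by the clock repressor gene Nr1d2 (324.1 ± 37.6) and the retinoic acid receptor gene Rara (184 ± 1.72), and Nr1h5 had none. All 14 coregulator genes had one, led by the coactivator genes Ncoa2 (207 ± 9.25) and Med1 (189 ± 8.82). Genes of hormone and ligand enzymes and of chaperones had one for 9 of 10 genes, led by Fkbp5 (188 ± 21.2) and Fkbp4 (143 ± 7.44), chaperones of the steroid receptor complex, while Dio1, which activates thyroid hormone, had a peak of 11.0 in replicate 1 alone. Target genes had one in 22 of 23 cases, led by Per1, a clock gene induced by glucocorticoids (321 ± 21.5), and Mylip, an LXR target that degrades the LDL receptor (209 ± 10.6), and Cyp3a11 had none. Fkbp5 stands in 2 of these lists. The median signal was 107.8 and 123.3 for coregulators, above the 82.4 and 87.0 of the receptors in both replicates, and 29.2 and 24.4 for hormone and ligand enzymes and chaperones.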

How the data were processed

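DNase-seq peaks were measured in 2 replicates of newborn kidney, the only group. The authors deposited 1 narrowPeak list per replicate, made from 36-nt reads aligned to mm10, per the file headers. Not given in the sources used here are the aligner, the peak caller, its threshold and the depth, so the precision of a peak's value is unknown. The deposited signal of each peak ranks peaks within its list, and any scaling for depth is unknown. Per peak, the deposited −log10 p reached 324 and served only to describe the lists. Other file types are not analysed here.

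Peaks of chromosomes 1 to 19, X and Y, as listed, were compared with the TSSs of GENCODE M21. A promoter peak overlapped 1 kb to each side of any TSS. TSSs with overlapping windows were joined into 1 separate promoter, called accessible when each replicate had a peak, whether or not these peaks overlapped. Distal sites were unions of overlapping peaks of both replicates (at least 1 bp) whose centre lay over 1 kb from every TSS. CpG observed over expected was taken 500 bp to each side. Motifs were exact matches on both strands. Values are per replicate or mean ± SD (n = 2), log2 ratios were centred on the median of all genes, and no test was possible. Isoforms and sequences are from RefSeq, GRCm38.p6.

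The members and lists were chosen with earlier results of these data known. All 35 members are named. From every other list, the rule takes the 2 genes of highest mean rank and the first 2 in alphabetical order without a peak in either replicate. It also takes the 5 strongest distal sites and the 3 members with most and with fewest sites (a tie for the third place is given whole). Slc12a1, Dio1 and Cyp2b10 were named outside this rule. Other windows, transcript sets, thresholds and single replicates were tried. Scripts were tested on simulated data. Python 3.11.15, numpy 2.4.6, pandas 2.3.3 and matplotlib 3.10.9 were used.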

Additional observations from a re-analysis of the deposited data

How the results depend on the processing

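No paired analysis was possible because the study has 1 group. Promoter-peak counts of the members and classes stayed within 1.5 times their values under every window, transcript set, threshold and single replicate tried (all members 31 to 33), as did the other gene lists and the counts of accessible promoters. Nr2e3 gained a promoter peak with a window of 2 kb (130 and 153), and Nr2e1 lost its peak in replicate 1 among peaks in the upper 50% of signal. With basic transcripts, 12 members had 2 or more accessible promoters in place of 19, with no share over all genes for that setting. The median percentile among all peaks was 94.7 for all members, 87.8 for steroid, 95.4 for metabolic and 94.7 for orphan receptors. With the most 5′ TSS only it was 93.8 for all members, 84.6 for steroid and 94.3 for metabolic receptors, and with windows of 500 bp 94.0 (93.955 before rounding), 81.7 and 94.6. Without peaks shared with another coding gene it was 94.1 for all members, 93.9 for metabolic and 95.6 for orphan receptors. Among promoter peaks of genes it was 43.6, 28.4, 46.8 and 44.1 for all members and the classes. Single replicates gave 94.4 to 94.7 for all members and 94.4 to 94.6 for orphan receptors. The median number of distal sites for all members, steroid, metabolic and orphan receptors was 5, 6.5, 5 and 5 within 25 kb (all coding genes 3), 17, 20.5, 19 and 14 within 100 kb (13), and 5, 4.5, 6 and 4 with the upper 50% of signal (3). Counted around the TSS nearest the strongest peak it was 10 for steroid and 10 for metabolic receptors, and with only promoter sites of coding genes left out 10 for all members. Single replicates gave 13 for all members (all coding genes 8), 13.5 to 14 for steroid, 15 for metabolic and 11.5 to 12.5 for orphan receptors. Gene-body density was 6.33 per 100 kb without the 50 kb around the TSS, and 10.8 to 12.2 in single replicates. The 6.33 covers only the members that reach beyond those 50 kb, so it is not over the same genes as the main value. No value for all coding genes is given at these settings. The causes were not tested beyond what each setting itself adds or removes. Limits of 5 and 15 CpGs, chosen after the data were seen, gave 27.0% and 3.34% of receptor distal sites, against 18.95% and 0.841% of all. Signals moved by over 1.5 times for Esr2, Thrb and Nr1i2 with windows of 500 bp, for Nr1h3 and Rxrb without shared peaks, and for Esrrg and Nr4a1 with the most 5′ TSS only. Nr3c1, Esrrb and Nr5a2 had no peak in both replicates with the most 5′ TSS only, and Nr2e1 none without shared peaks. Weak peaks are limited by the authors' unknown depth and threshold.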
